A study of Mus musculus with 24 samples.

Results

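The genes described here are 9 genes known to be repressed by Capicua (CIC), taken by name from what is known of CIC, with earlier results of these data in view: the ETS transcription factors Etv1, Etv4 and Etv5, the MAP kinase phosphatases Dusp4 and Dusp6, the Sprouty proteins Spry2 and Spry4, and the Sprouty-related proteins Spred1 and Spred2. They were found by symbol among 54232 genes listed for each library, and all 9 were among the 22502 genes with enough fragments to be tested. RNA-seq was done on the cerebellum of 24 mice at 6 weeks of age, all on a C57BL/6J background. The mice carry edited Atxn1 alleles, which differ in the length of the glutamine tract of ATXN1 and in the S776A change, in which a serine is replaced by alanine so that it cannot be phosphorylated.

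The 8 WT mice carried 2 unexpanded alleles, called 2Q. The 4 SCA1 mice carried 1 expanded allele over a 2Q allele, a knockin model of spinocerebellar ataxia type 1 in which the expanded protein is made from the endogenous locus. The 4 SCA1 S776A mice had the substitution on the expanded allele only. The 4 S776A double mice had an expanded and a 2Q allele with the substitution on both. The 4 WT S776A homozygous mice had the substitution on both of their 2Q alleles and no expansion. More than 1 founder line of the edited alleles exists, and which line these mice came from is not given in the sources used here.

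CIC is a repressor that sits on the regulatory DNA of its target genes, and ATXN1 and its relative ATXN1L bind CIC and hold it stable. Signaling from receptor tyrosine kinases through RAS and ERK relieves the repression, so that the targets rise with growth factor signaling. Many of the targets then act back on the pathway: DUSP4 and DUSP6 remove the activating phosphates from MAP kinases, Sprouty proteins block signaling between receptor and RAF, and SPRED proteins bring neurofibromin to RAS. In SCA1 the complex of expanded ATXN1 with CIC is known to contribute to Purkinje cell disease.

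In GRCm38 the ETS genes lie on separate chromosomes, Etv1 (ENSMUSG00000004151) at chr12:38779380-38870484, Etv4 (ENSMUSG00000017724) at chr11:101769742-101785371 and Etv5 (ENSMUSG00000013089) at chr16:22381309-22439719. The phosphatase genes are Dusp4 (ENSMUSG00000031530) at chr8:34807297-34819894 and Dusp6 (ENSMUSG00000019960) at chr10:99263231-99267489. Of the Sprouty and Spred genes, Spry2 (ENSMUSG00000022114) at chr14:105891947-105896819, Spred1 (ENSMUSG00000027351) at chr2:117121374-117182279 and Spred2 (ENSMUSG00000045671) at chr11:19924375-20024026 lie apart as well. Fragments were counted over the exons of each gene.

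CIC binds an 8-base site, of which TGAATGAA is the best known form. In the RefSeq promoter windows of GRCm38.p6, which run from 250 bases before to 50 bases after a transcription start, 6 of the 9 genes had a window and 8 windows were found in all. Etv4, Dusp4 and Spry4 had none. The octamers TGAATGAA, TGAATGGA, TCAATGAA and TCAATGGA were searched on both strands. Of 32851 windows of all genes, 1.30% held TGAATGAA, 1.21% held TGAATGGA, 0.749% held TCAATGAA and 0.670% held TCAATGGA, and 3.84% held any of the 4. Of the 8 windows here, 2 held an octamer. The Dusp6 window held TCAATGGA on the opposite strand 24 bases before the start, with a second copy just past the start, and 2 of the 32851 windows held this octamer at least 2 times. The Spry2 window held TCAATGAA on the opposite strand 54 bases before the start. The Dusp6 window also held TGAATG, the shorter core of the first 2 octamers searched, once. The inner of the 2 Etv5 windows held none of the 4 octamers but held the core 3 times, which 0.170% of windows did, while 12.7% held the core at least once. The core overlaps the first 2 octamers by design, so these shares are not independent. The limits of 2 copies and 3 copies equal the counts in the Dusp6 and Etv5 windows themselves, so those shares are descriptive only. The 250 bases before the start are printed for these 3 windows because they carry the matches: octamers are in capitals for Dusp6 (chr10:99262981-99263230, plus strand) and Spry2 (chr14:105896820-105897069, minus strand), and cores for Etv5 (chr16:22438369-22438618, minus strand). Each reads 5′ to 3′ along the strand of the gene.
Dusp6: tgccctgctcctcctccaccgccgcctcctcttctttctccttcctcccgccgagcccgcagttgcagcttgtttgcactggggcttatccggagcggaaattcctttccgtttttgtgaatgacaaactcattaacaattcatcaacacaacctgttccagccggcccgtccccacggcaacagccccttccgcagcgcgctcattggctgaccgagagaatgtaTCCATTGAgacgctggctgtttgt
Spry2: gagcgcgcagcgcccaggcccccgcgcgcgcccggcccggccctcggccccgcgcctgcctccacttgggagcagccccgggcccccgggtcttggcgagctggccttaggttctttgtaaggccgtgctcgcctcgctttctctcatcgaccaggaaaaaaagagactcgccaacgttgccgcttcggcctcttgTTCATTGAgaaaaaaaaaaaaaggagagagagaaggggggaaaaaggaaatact
Etv5: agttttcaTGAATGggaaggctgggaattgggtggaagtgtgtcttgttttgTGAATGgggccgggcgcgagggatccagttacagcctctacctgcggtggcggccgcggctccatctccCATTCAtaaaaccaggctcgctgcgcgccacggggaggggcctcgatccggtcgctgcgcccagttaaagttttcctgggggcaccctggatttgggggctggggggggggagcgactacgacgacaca
These are matches of letters in the reference sequence, and binding was not measured.

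The libraries held 62163600 to 88430180 fragments on genes. Levels are given as CPM, fragment counts divided by library size, after TMM scaling, which evens out the composition of the libraries. Libraries fell into 2 sequencing batches, inferred from the shares of fragments that did not map, mapped to several places, hit no gene or were ambiguous: batch 1 held WT replicates 1 to 4 and the SCA1, SCA1 S776A and S776A double mice, and batch 2 held WT replicates 5 to 8 and the WT S776A homozygous mice. WT was the only genotype in both. Purkinje cell markers such as Calb1 (1164 CPM ± 34.3, SD, n = 4 WT mice of batch 1) and granule cell markers were abundant in this tissue. Of the libraries, WT S776A homozygous replicate 4 stood apart, with 6.73% of its gene fragments on mitochondrial genes against 3.01% in the lowest library, and the values of that genotype that it moves are given without it as well.

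All 9 genes were well counted, and the lowest count of any of them in any mouse was 319 fragments (Dusp4). Per kb of exon, Etv1 was the most abundant in the WT mice of batch 1, at 37.1 CPM per kb ± 2.10 (SD, n = 4). Spry2 (21.9 ± 1.13), Spred2 (20.2 ± 6.25), Spred1 (19.9 ± 3.90) and Etv5 (15.4 ± 3.42) followed, then Etv4 (7.89 ± 0.347), Dusp6 (6.23 ± 1.51), Spry4 (3.57 ± 1.85) and Dusp4 (2.7 ± 0.963). The ranges of the mice separated Etv1 from Spry2 and Etv5 from Etv4. All other neighbours in this order overlapped. The order is of levels per length and uses the union of annotated exons of each gene, which is long for Etv1.

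**Figure D1:**
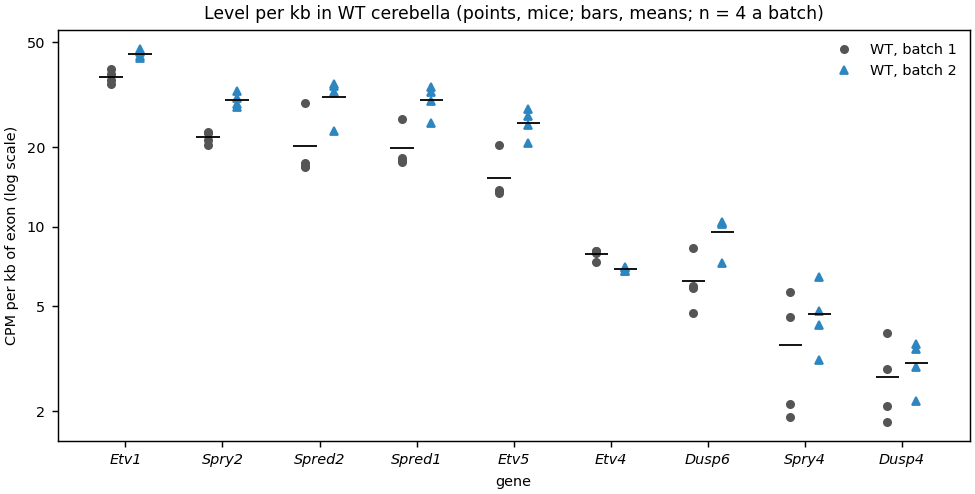
Level of each gene in CPM per kb of exon (log scale) in the WT mice of batch 1 (circles) and batch 2 (triangles), 1 point per mouse and a bar at the mean of 4. Etv1 is highest at 37.1 and Dusp4 lowest at 2.7 in batch 1, and the triangles lie above the circles for Etv1, Etv5 and Spry2 without overlap.

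The first question was whether CIC targets differed between mice with the expanded allele and WT mice of the same batch. None of the 9 genes passed the test in SCA1 mice (adjusted p under 0.01 and absolute log2 fold change over 0.5, edgeR's quasi-likelihood test, Benjamini-Hochberg over 22502 genes), where 0.173% of all genes did. None had an unadjusted p under 0.05 (8.25% of all genes did), and in no gene were the SCA1 and WT mice without overlap (8.76% of all genes). DESeq2 with batch in the model called 66 of 40386 genes and ComBat-seq followed by DESeq2 called 125, none of them among the 9. The log2 fold changes ran from -0.02 (Spred2) to 0.38 (Dusp4), with a median of 0.06 against 0.00 over all genes tested, and 7 of the 9 were above 0, as were 50.5% of all genes. In whole tissue, fewer cells of a type and less RNA per cell cannot be told apart.

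Among the ETS factors, which carry ERK signaling to transcription, Etv1 was at 462, 503, 480 and 527 CPM in the WT mice of batch 1 and at 541, 560, 537 and 420 in SCA1 mice. SCA1 replicate 4 was the lowest of the 8 and the other 3 SCA1 mice were above every WT mouse. The log2 difference was 0.06 ± 0.09 (SE), with a 95% interval of -0.13 to 0.25.

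Etv4 was at 25.1, 25.2, 22.9 and 24.7 CPM in WT mice and at 24.1, 27.5, 25.3 and 24.8 in SCA1 mice, a log2 difference of 0.05 ± 0.10. The groups overlapped, and the highest of the 24 mice was 1.67 times the lowest, the narrowest range of the 9 genes. Etv5 was at 55.3, 56.1, 56.5 and 84.0 CPM in WT mice and at 56.8, 87.1, 54.9 and 51.7 in SCA1 mice. A single mouse of each group was high, and the other 3 of each lay close together, so the log2 difference was -0.01 with an interval of -0.41 to 0.40.

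Of the phosphatases, Dusp4, which acts on MAP kinases in the nucleus, had the largest differences. It was at 5.75, 4.99, 7.95 and 10.9 CPM in the WT mice of batch 1. In SCA1 mice it was at 8.76, 11.7, 11.3 and 6.87 CPM. WT replicate 4 lay among the SCA1 mice and SCA1 replicate 4 among the WT mice. The log2 difference was 0.38 ± 0.30 (1.30-fold, 95% interval 0.844 to 2.01, adjusted p = 0.802 by edgeR). Dusp4 was at 9.14, 6.42, 11.7 and 14.1 CPM in SCA1 S776A mice, a log2 difference from WT of 0.48 ± 0.30. In S776A double mice it was at 12.6, 9.72, 8.56 and 10.3 CPM, a log2 difference of 0.48 ± 0.30. Every S776A double mouse was above 3 of the 4 WT mice and none of these differences passed the test. With the 3 genotypes that carry the expansion averaged, Dusp4 was 0.45 ± 0.25 above WT on the log2 scale (adjusted p = 0.707 by edgeR, interval -0.08 to 0.97).

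Dusp6, the cytoplasmic ERK phosphatase, was at 18.8, 14.8, 18.4 and 26.1 CPM in WT mice of batch 1 and at 21.0, 25.7, 22.1 and 18.7 in SCA1 mice. Its log2 differences from WT were 0.16 in SCA1, 0.18 in SCA1 S776A and 0.13 in S776A double mice, each with an SE of 0.16. In each of these genotypes the range of the mice overlapped that of WT, which WT replicate 4 extended upward.

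The Sprouty genes had the smallest and the largest SE of the 9 genes, 0.07 for Spry2 and 0.38 for Spry4. Spry2 was at 47.2, 42.7, 44.7 and 47.8 CPM in WT mice of batch 1 and at 46.6, 48.1, 47.5 and 43.0 in SCA1 mice. The ratio of the 2 genotypes was 1.01 with a 95% interval of 0.917 to 1.12. Spry4 was at 9.03, 10.2, 21.7 and 27.0 CPM in WT mice and at 14.5, 21.8, 22.1 and 20.0 in SCA1 mice. WT mice of 1 batch differed 2.99-fold among themselves, and the ratio of SCA1 to WT was 1.15 with an interval of 0.663 to 2.01.

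Spred1 was at 124, 120, 121 and 175 CPM in WT mice of batch 1 and at 136, 176, 148 and 113 in SCA1 mice, a log2 difference of 0.09 ± 0.17. Spred2 was at 80.7, 78.3, 77.9 and 137 CPM in WT mice and at 96.3, 118, 84.9 and 68.4 in SCA1 mice, a log2 difference of -0.02 ± 0.21. For both, 3 WT mice lay within a few CPM of each other and WT replicate 4 lay far above them, within the upper range of the SCA1 mice for Spred1 and above it for Spred2.

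**Figure D2:**
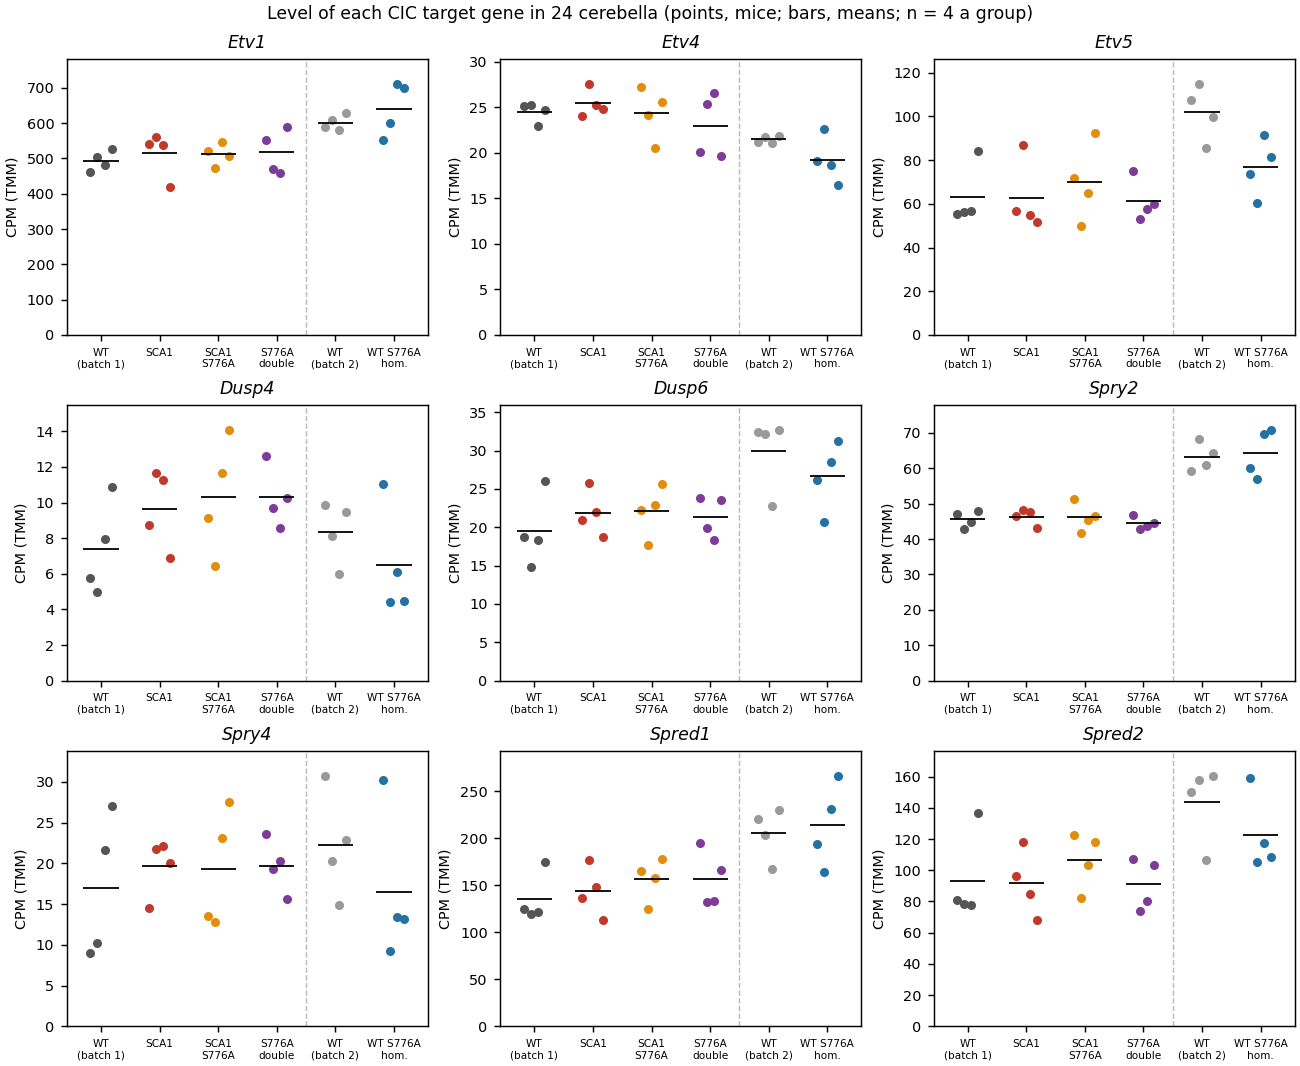
Level of each of the 9 genes in CPM (axis from 0) in the 24 mice, 1 point per mouse in order of replicate number and a bar at the mean of 4; the dashed line separates batch 1 from batch 2, and WT S776A hom. stands for WT S776A homozygous. The groups of batch 1 overlap for every gene, as in Dusp4 with 4.99 to 10.9 in WT and 6.87 to 11.7 in SCA1 mice.

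In SCA1 S776A mice none of the 9 genes passed the test (0.0133% of all genes did). None had an unadjusted p under 0.05 (3.93% of all genes) and none was without overlap (4.39% of all genes). DESeq2 with batch called 9 of 40386 genes and ComBat-seq followed by DESeq2 called 33, none of them among the 9 genes studied. The log2 fold changes from WT had a median of 0.18 (0.00 over all genes) and 8 of 9 were above 0 (51.2% of all genes), the exception being Etv4 at -0.01 ± 0.10. Apart from Dusp4, the largest was Spred1 at 0.21 ± 0.17, with mice at 165, 124, 158 and 178 CPM. In S776A double mice none passed the test (0.0267% of all genes did) or had an unadjusted p under 0.05 (6.93% of all genes). None was without overlap (7.11% of all genes). DESeq2 with batch called 19 of 40386 genes and ComBat-seq followed by DESeq2 called 48, none of them among the 9. The median was 0.07 and 5 of 9 were above 0 (49.8% of all genes). Spred1, at 195, 132, 133 and 166 CPM, was 0.22 ± 0.17 above WT on the log2 scale, and Etv4, at 20.1, 25.3, 26.6 and 19.6 CPM, was at -0.10 ± 0.10. The 3 comparisons share the same 4 WT mice, so a high or low WT mouse moves all of them together.

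**Figure D3:**
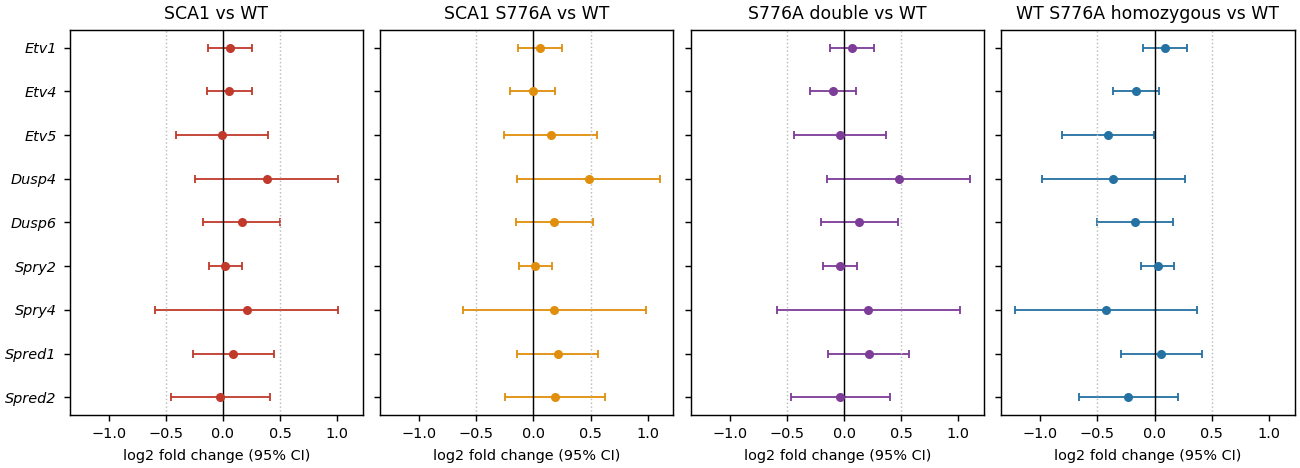
Log2 fold change of each gene from WT of the same batch in 4 genotypes (points, edgeR estimates; bars, 95% intervals; dotted lines at the fold threshold of 0.5). Intervals cross 0 for all genes except Etv5 in WT S776A homozygous mice, which reaches -0.01.

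In WT S776A homozygous mice, compared with WT replicates 5 to 8, none of the 9 genes passed the test, and none of the 22502 genes did (0% of all genes), although 2246 genes (9.98%) had an unadjusted p under 0.05. DESeq2 with batch in the model called 0 genes here, and ComBat-seq followed by DESeq2 called 99, none of them among the 9. None of the 9 was without overlap (2.65% of all genes were). The median over the 9 genes was -0.17 (0.01 over all genes) and 3 of 9 were above 0 (53.3% of all genes). Etv5 alone had an unadjusted p under 0.05 (3.41% of all genes did so in this direction). It was at 73.6, 60.4, 91.4 and 81.6 CPM in WT S776A homozygous mice and at 108, 115, 85.3 and 99.6 in WT mice. Replicate 3 of the homozygous mice lay above WT replicate 7 and every other homozygous mouse lay below all WT mice. The log2 difference was -0.41 ± 0.19 (adjusted p = 0.497 by edgeR), and -0.44 without replicate 4. The unadjusted p of Etv5 was no longer under 0.05 without any one of homozygous replicates 1, 2 and 4 or of WT replicates 2, 5, 6 and 8, and without replicate 4 none of the 9 genes had one. Without replicate 4, the library that stood apart, the median over the 9 genes was -0.18 and 1 of 9 was above 0 (49.8% of all genes), since Spry2 went from 0.03 to -0.03 and Spred1 from 0.06 to -0.07.

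In Dusp4 and Spry4, the genes with the widest range between mice, the difference in this genotype depended on single mice. Dusp4 was at 11.0, 4.39, 6.11 and 4.49 CPM in WT S776A homozygous mice and at 9.89, 8.10, 5.98 and 9.45 in WT mice. Spry4 was at 30.2, 9.23, 13.4 and 13.2 CPM and at 30.8, 20.2, 14.9 and 22.9 in WT mice. In both genes replicate 1 was far above the other 3 homozygous mice. The log2 differences were -0.36 ± 0.30 and -0.43 ± 0.38, and without replicate 1 they were -0.76 (adjusted p = 0.177 by edgeR) and -0.91 (adjusted p = 0.196). Both genes had an unadjusted p under 0.05 by edgeR without replicate 1. The differences were smaller without replicate 2, at -0.22 for Dusp4 and -0.235 for Spry4, and without replicate 4, at -0.22 and -0.33. Etv4 was at 19.1, 22.6, 18.6 and 16.5 CPM against 21.2, 21.7, 21.1 and 21.9 in WT mice, so 3 of 4 lay below the narrow WT range, and the log2 difference was -0.16 ± 0.10. It was -0.26 without replicate 2, with an unadjusted p of 0.0136 by edgeR, and -0.10 without replicate 4. The shares of all genes under 0.05 were not taken for the fits without replicate 1 or 2.

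The second question was whether the S776A change altered these genes on top of the expansion. None of the 9 passed the test between SCA1 S776A and SCA1 mice (0.00444% of all genes did), between S776A double and SCA1 mice (0% of all genes), or between S776A double and SCA1 S776A mice (0% of all genes), and none had an unadjusted p under 0.05 in any of them (4.35%, 3.64% and 2.96% of all genes had). Between SCA1 S776A and SCA1 mice the largest difference was in Spred2, 0.21 ± 0.21 on the log2 scale with an interval of -0.22 to 0.65. Between S776A double and SCA1 mice the largest was in Etv4, -0.15 ± 0.10 with an interval of -0.35 to 0.05. Between S776A double and SCA1 S776A mice it was again in Spred2, -0.22 ± 0.21. None passed the test for the average of the 3 expanded genotypes against WT (0.0978% of all genes did). For the difference of S776A effects none passed either (0% of all genes did). It was S776A double against SCA1 S776A mice, less WT S776A homozygous against WT mice. The former adds the substitution to the only unexpanded allele, in mice that already carry it on the expanded allele. The latter adds it to both unexpanded alleles, so allele dose and expansion cannot be told apart here. In these last comparisons the unadjusted p was under 0.05 in none of the 9 and in 7.67% and 2.88% of all genes. In these 5 comparisons neither DESeq2 alternative called any of the 9. In the order given, DESeq2 with batch called 4, 1, 0, 32 and 0 of 40386 genes. The corresponding counts by ComBat-seq followed by DESeq2 were 11, 5, 3, 94 and 35. ComBat-seq followed by DESeq2 gave Dusp4 an unadjusted p of 0.034 in the average of the expanded genotypes, with an adjusted p of 0.246.

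Single WT mice weighed on the comparisons. WT replicate 4, of batch 1, had the highest level of the 4 WT mice in 8 of the 9 genes, all except Etv4. Without it all 9 genes were above 0 in SCA1 mice (48.6% of all genes were), with a median of 0.21, and the medians became 0.35 in SCA1 S776A and 0.21 in S776A double mice. Dusp4 was then above WT on the log2 scale by 0.62 in SCA1, 0.73 in SCA1 S776A and 0.72 in S776A double mice, and Dusp6 by 0.33, 0.35 and 0.30 in the same order. None of the 9 passed the test without this mouse, and for the average of the expanded genotypes the lowest adjusted p was 0.511 by edgeR. Some unadjusted p-values did fall under 0.05 by edgeR without it: Dusp6 in SCA1 mice, and Dusp4 and Spred1 in S776A double mice. In SCA1 S776A mice these were Dusp4, Dusp6, Spred1 and Spred2, and for the average Dusp4, Dusp6 and Spred1. The share of all genes under 0.05 was not taken for this fit. The mouse was singled out by its high levels in these same genes, so these p-values are descriptive only. Other mice moved the medians the other way. The median in SCA1 mice was 0.00 without SCA1 replicate 2. In SCA1 S776A mice it was 0.06 without their replicate 4 and 0.07 without WT replicate 2. In S776A double mice it was 0.00 without WT replicate 1 and 0.00 without their own replicate 4. In batch 2, WT replicate 7 was the lowest of its WT group in 8 of the 9 genes, all except Spry2, as in Dusp6, at 22.8 CPM against 32.1 to 32.7, and in Spred2, at 107 CPM against 150 to 161. Without it the median in WT S776A homozygous mice was -0.28.

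Between the WT mice of the 2 batches, which have the same genotype, 6 of the 9 genes were higher in batch 2 with an adjusted p under 0.05, as were 20.7% of all genes, and none of the 9 was lower (45% of all genes passed in either direction). At the thresholds used for genotypes, 3 of the 9 passed (17.6% of all genes did). Etv5 was 0.69 ± 0.19 higher on the log2 scale (adjusted p = 0.00639 by edgeR), Dusp6 0.62 ± 0.16 (adjusted p = 0.00353) and Spred1 0.61 ± 0.17 (adjusted p = 0.00668). These 3 calls were all lost without any one of WT replicates 1, 2, 3, 5, 6 and 8, and Spred2 joined them without replicate 4 or 7. Spry2 was higher by 0.47 ± 0.07 (adjusted p = 1.06e-05), under the fold threshold, with mice at 59.4, 68.3, 60.8 and 64.4 CPM in batch 2 and no overlap. Etv5 and Etv1 were also higher without overlap (22.9% of all genes were), Etv1 by 0.29 ± 0.09, and Etv4 was lower without overlap, with a log2 difference of -0.19 ± 0.10 (adjusted p = 0.111 by edgeR; 23.8% of all genes were lower without overlap). Mouse, sequencing run and any difference in dissection between the 2 sets cannot be told apart. Without batch in the model, where the 8 WT mice are pooled, the medians over the 9 genes moved to -0.18 in SCA1, -0.12 in SCA1 S776A and -0.12 in S776A double mice and to 0.05 in WT S776A homozygous mice, and still none passed the test.

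The 9 genes were then compared with each other across mice. Each mouse's log2 CPM was taken as a deviation from the mean of its genotype within its batch, and Pearson's r and Spearman's rho were computed over the 24 mice for each of 36 pairs. P-values came from 100000 two-sided permutations of mice within genotype and batch, with Benjamini-Hochberg adjustment over the 36 pairs. Of these pairs 21 (58.3%) had an adjusted p under 0.05, each by r and by rho, and all 21 were positive. The median r over all 36 was 0.558. Many genes of a tissue covary in this way: over all pairs of the 22502 genes tested the median r was 0.00 and 6.39% of pairs reached 0.503, the lowest r among the 21, and among the 11649 genes with a mean of at least 5 CPM 14.4% did. The limit of 0.503 was set by the 21 pairs themselves, so these shares are descriptive only.

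Dusp6 and Spred1 moved together most closely (r = 0.919, rho = 0.952, permutation p = 1e-05, the smallest these permutations can give, adjusted p = 0.00036). The r was 0.905 without the 2 mice farthest from the median of Dusp6, 0.908 in the 16 mice of batch 1 and 0.941 in the 8 of batch 2. Dusp4 and Spry4, the 2 genes with the widest spread between mice, formed another close pair (r = 0.867, rho = 0.867, permutation p = 7e-05, adjusted p = 0.00063). Their r was 0.794 without the 2 farthest mice, 0.811 in batch 1 and 0.946 in batch 2. Etv5 went with Spred1 (r = 0.862, rho = 0.896, permutation p = 2e-05, adjusted p = 0.00036) and with Dusp6 (r = 0.836, rho = 0.897, permutation p = 4e-05, adjusted p = 0.00048), and these were 0.823 and 0.795 without the 2 farthest mice. Of the 21 pairs, Spry4 with Spred2 depended most on the extreme mice, falling from 0.55 to 0.336.

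Etv4 stood outside. Its r was below 0 with each of the other 8 genes, from -0.461 with Etv1 to -0.0572 with Spred2, and none of the 8 passed the test. Some of these signs hung on a few mice. Without the 2 farthest mice r was 0.0175 with Etv5, 0.0194 with Dusp4 and 0.0145 with Spry4, and stayed below 0 with the rest. In batch 1 it was 0.0897 with Etv5 and 0.102 with Spry2, and below 0 with the rest. The median r of the 8 pairs with Etv4 was -0.184 over all mice and -0.147 in batch 1. In batch 2 it was -0.544, with 1 of the 8 above 0. Among the 28 pairs without Etv4 the median r was 0.633, 0.752 in batch 1 and 0.516 in batch 2, and 27, 28 and 23 of the pairs were above 0. In batch 2 Dusp4, Spry4 and Spred2 went together (r of Dusp4 with Spred2 0.914) while Dusp4 and Etv1 had an r of -0.432. In batch 1 the corresponding values were 0.751 and 0.589.

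**Figure D4:**
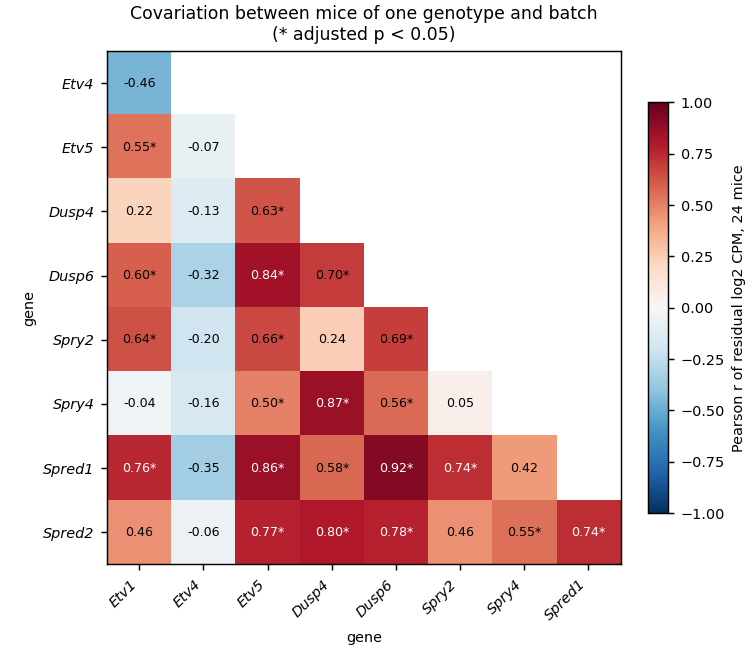
Pearson's r of residual log2 CPM over 24 mice for each pair of the 9 genes, red above 0 and blue below 0, with an asterisk where the adjusted permutation p is under 0.05. All 8 pairs with Etv4 are below 0, as is Etv1 with Spry4 at -0.0404, and the other 27 pairs are above 0.

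**Figure D5:**
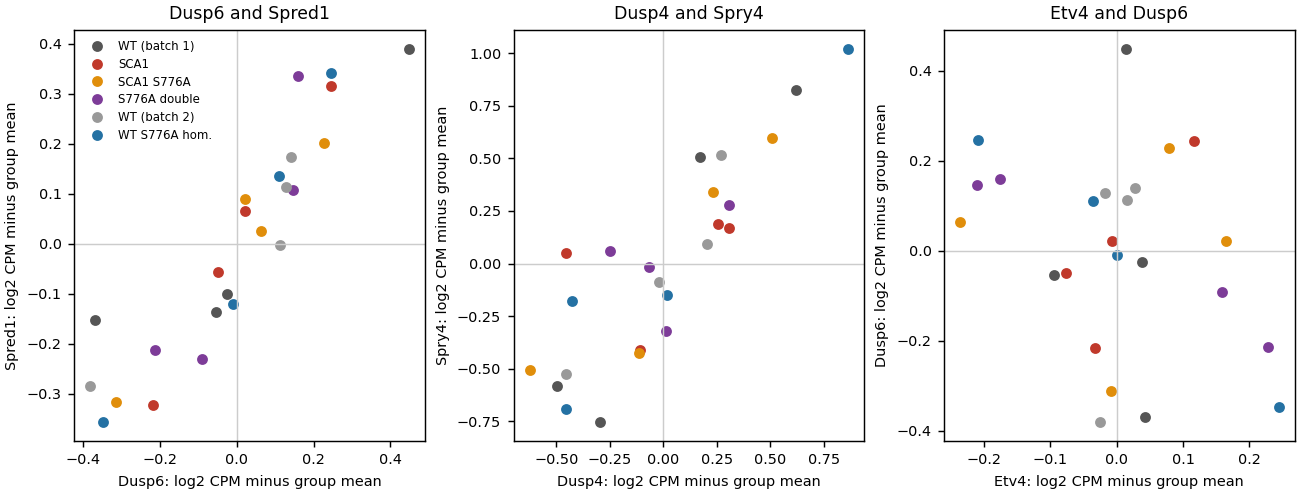
Deviation of each mouse from the mean of its genotype and batch, in log2 CPM, for 3 pairs of genes, colored by group. Points rise along a line for Dusp6 with Spred1 (r = 0.919) and Dusp4 with Spry4 (r = 0.867), and do not for Etv4 with Dusp6 (r = -0.32).

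Library measures moved with these deviations. The mean deviation of the 9 genes had an r of 0.601 with the number of fragments on genes and of -0.436 with the share of fragments that hit no gene. With linear terms for both, the median r was 0.457 over the 36 pairs and 0.612 over the 28 without Etv4. Over the 8 pairs with Etv4 it was -0.505, with 1 of the 8 above 0. The r of Dusp6 with Spred1 was then 0.891 and that of Dusp4 with Spry4 0.841. With the mean log2 deviation of marker lists, that of the 9 genes had an r of 0.451 with 8 Purkinje cell markers, 0.527 with 3 unipolar brush cell markers, 0.533 with the 4 tested markers of brainstem and neighbouring regions, -0.311 with 6 granule cell markers and 0.00333 with 6 choroid plexus markers. The brainstem list of 5 genes summed to 0.674 to 5.24 CPM in the mice of batch 1 and 0.838 to 1.32 CPM in those of batch 2. Taken the same way, the r was 0.64 with 22 further genes reported or proposed as CIC targets. It was 0.387 with 30 genes from receptor to ERK and -0.00944 with 12 ERK-driven immediate early genes. With 8 Bergmann glia and astrocyte markers it was 0.347, and with every other list it was between -0.191 and 0.255. The part of any of these in the covariation of the 9 genes was not tested.

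The genes most alike to the 9 were found by the r, over the 24 mice, between a gene's log2 difference from the WT mice of its batch and the mean of the same over the 9 genes, among 22493 other genes. They were Frmd6 (r = 0.889), which encodes a FERM domain protein, Mafg (0.882), a small MAF transcription factor, Zfp608 (0.880), a zinc finger protein, Trib1 (0.879), a pseudokinase, and Bdnf (0.875), a neurotrophin. None of the 5 was called in any comparison with WT, and their lowest adjusted p was 0.485, in WT S776A homozygous mice, where Trib1 was at -0.56 on the log2 scale.

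Of the complex itself, Cic was at 237, 238, 223 and 239 CPM in the WT mice of batch 1 and at 215, 241, 196 and 175 in SCA1 mice, a log2 difference of -0.18 ± 0.23. In WT S776A homozygous mice it was at 178, 191, 113 and 56.3 CPM against 150, 186, 162 and 170 in WT mice of batch 2. Replicate 4, the library with the highest mitochondrial share, was the lowest of all 24 mice, and the log2 difference was -0.31 ± 0.23 with it and -0.06 without it. Atxn1 was 0.21 ± 0.08, 0.27 ± 0.08 and 0.29 ± 0.08 above WT on the log2 scale in SCA1, in SCA1 S776A and in S776A double animals, with an unadjusted p under 0.05 in each and a lowest adjusted p of 0.398, and 0.02 ± 0.08 above WT in WT S776A homozygous mice. Atxn1l differed from WT by -0.13 to -0.02 on the log2 scale in the 4 genotypes, each with an SE of 0.09.

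Other genes of the pathway gave 1 call. Among 22 further genes reported or proposed as CIC targets, Igfbp5, a secreted binding protein of insulin-like growth factors, fell in SCA1 mice, from 228, 223, 230 and 250 CPM in WT mice to 107, 119, 119 and 105, without overlap. The log2 difference was -1.05 ± 0.13 (adjusted p = 0.0001 by edgeR). It was -0.62 ± 0.13 in SCA1 S776A mice (adjusted p = 0.157) and -0.68 ± 0.13 in S776A double mice (adjusted p = 0.0385), neither of which passed, although DESeq2 with batch and ComBat-seq followed by DESeq2 called Igfbp5 in both. The other 21 genes of that list were not called in any genotype, and its median was between -0.15, in WT S776A homozygous mice, and 0.01, in SCA1 S776A mice. In SCA1 mice 4 of the 22, Igfbp5 among them, were lower with an unadjusted p under 0.05 (4.33% of all genes). Another 1 was higher (3.92%). The lower and higher counts were 2 and 0 in SCA1 S776A mice (1.95% and 1.98%). They were 4 and 1 in S776A double mice (3.4% and 3.53%) and 4 and 0 in WT S776A homozygous mice (3.41% and 6.57%). In S776A double mice Igfbp5 was also called without a batch term and without WT S776A homozygous replicate 4. In SCA1 mice Purkinje cell markers were lower as well: they summed to 5479 to 6126 CPM in SCA1 mice and 7187 to 8256 in WT mice of batch 1, with 6 of the 8 lower at an unadjusted p under 0.05 (4.33% of all genes) and none called. In SCA1 S776A and in S776A double animals, where Igfbp5 was at -0.62 and -0.68, none of the 8 markers had an unadjusted p under 0.05. Their medians were -0.09 and -0.05. The markers summed to 6127 to 7142 CPM in SCA1 S776A mice, also below every WT mouse of batch 1. In S776A double mice the sum was 5976 to 8044 CPM, which overlapped WT. The part of these markers in the Igfbp5 difference was not tested.

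None of 13 paralogs of the 9 genes was called in the 4 genotypes. Dusp5, a MAP kinase phosphatase that is also in the list of further targets, had the lowest p among them in SCA1 mice, at -0.30 ± 0.11 on the log2 scale (adjusted p = 0.403 by edgeR), and Spry3 the lowest in another genotype, 0.18 ± 0.08 in S776A double mice. None of 30 genes from receptor to ERK was called. The neuregulin receptor gene Erbb4 had the lowest p, at 0.24 ± 0.08 in SCA1 and 0.26 ± 0.08 in WT S776A homozygous mice. Of the homozygous mice replicate 4 was the highest for Erbb4, at 71.7 CPM against 48.0 to 60.6. None of 15 tested ligand genes was called, with Fgf1 at -0.28 ± 0.07 in SCA1 mice (adjusted p = 0.102). None of 12 ERK-driven immediate early genes was called, and in WT S776A homozygous mice 6 of the 12 were lower with an unadjusted p under 0.05 (3.41% of all genes), led by Fosb at -1.49 ± 0.45 (adjusted p = 0.485), and Fosb was 1.23 ± 0.44 above WT in SCA1 mice (adjusted p = 0.388). Fosb was scarce, at 1.67, 3.76, 0.684 and 1.31 CPM in SCA1 mice and 0.536 to 1.11 in WT mice of batch 1. It was at 0.393 to 1.12 CPM in WT S776A homozygous mice and 0.897 to 2.52 in WT mice of batch 2. Between the WT mice of the 2 batches it was 1.25 ± 0.44 higher on the log2 scale in batch 2.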

How the data were processed

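Cerebella of 24 mice were measured, 8 WT and 4 of each other genotype. Per the labels and the study's methods, the authors trimmed reads with Trimmomatic 0.36, aligned them with STAR 2.7.2d to GRCm38.p6 and deposited whole-number counts of fragments per gene and library, without strand and without normalization. Their ComBat-seq correction and DESeq2 1.28.1 test came after these counts. Symbols were matched through GENCODE M21 (54165 of 54232 gene IDs, without version where needed), and 1 further feature is not reported here. The antisense partner of a gene cannot be told apart in unstranded counts.

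Batch was inferred by k-means (k = 2, 50 starts) on 4 mapping shares (mean silhouette 0.634), since the labels do not give it. Counts were TMM scaled and tested with edgeR 4.0.16 in R 4.3.3 (robust quasi-likelihood, filterByExpr, genotype and batch, all 24 mice). Genes were called at the study's thresholds, with Benjamini-Hochberg adjusted p below 0.01 and a log2 fold change beyond 0.5 in size. Log2 CPM used a prior count of 2. Alternatives (other size factors, filters and batch handling, each mouse left out) used DESeq2 1.42.0 and sva 3.50.0. The labels do not say whether mice are littermates, so p-values cover the spread between these samples.

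The 9 genes and all gene and marker lists were chosen with earlier results of these data known. Other genes are named if called in a comparison with WT, else by the lowest p of their list in SCA1 mice and in any other genotype, or as the 5 most alike, with Cic, Atxn1 and Atxn1l. Depth left little counting error, at 319 or more fragments for each of the 9 genes in each mouse, and no paired test was made.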

Additional observations from a re-analysis of the deposited data

Results flagged for a closer look

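In groups of 4 mice, 6 of the 54 sets of values of the 9 genes held a mouse whose gap to its nearest neighbour was a larger share of the group's whole range on the log2 scale than Dixon's 95% limit for 4 values, where chance gives about 1 in 20. WT replicate 4 of batch 1 was high for Etv5 (84.0 CPM against 55.3 to 56.5, gap 0.947 of the range), Spred1 (175 against 120 to 124, 0.904) and Spred2 (137 against 77.9 to 80.7, 0.937). WT replicate 7 of batch 2 was low for Dusp6 (22.8 CPM against 32.1 to 32.7, 0.949) and Spred2 (107 against 150 to 161, 0.833). SCA1 replicate 4 was low for Etv1 (420 CPM against 537 to 560, 0.855). The 9 genes covary between mice, so these flags are not independent of each other.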

How the results depend on the processing

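No paired analysis was possible because the genotypes compared share no animal or number that pairs them in the labels. Under every alternative run (RLE size factors, no batch term, ComBat-seq then DESeq2, DESeq2 with batch, no low count filter, 1 CPM in 4 mice, mice of 1 batch only, an adjusted p under 0.05 with no fold threshold, and each mouse left out) none of the 9 genes was called in any of the 9 genotype comparisons it could be run for (mice of 1 batch give no value for the difference of S776A effects). The lowest adjusted p was 0.0501 without a batch term, where 37 of 81 fold changes of the 9 genes moved by more than their SE and 28 changed sign, against 0 to 3 sign changes in the other alternatives with all mice. Leaving out 1 mouse at a time changed the sign of 141 of 1944 values and gave a lowest adjusted p of 0.158. Between the WT mice of the 2 batches, a comparison whose alternatives were chosen after seeing the data, the count called was 3, 1 without a low count filter, and 0 to 4 with 1 mouse left out, while 5 to 7 genes had an adjusted p under 0.05. The median r over the 36 pairs was 0.477 to 0.631 with 1 mouse left out, 0.62 and 0.33 within batch 1 and batch 2, and 0.457 with depth and no-feature terms, the last 3 chosen after seeing the data. Igfbp5 stayed called in SCA1 mice under each alternative (adjusted p 6.22e-16 to 0.00116) and was called in other genotypes under some. ComBat-seq then DESeq2 called Fosb in WT S776A homozygous mice (-1.48). The spread between mice, not depth, set the width of the intervals.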
